A study of Mus musculus with 2 samples.

Results

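The 829 sites described here are strong distal regions of open chromatin whose count in basal cells of mouse back skin was at most 0.5 times the control value after mechanical stretching of the skin. They were chosen by their measured count ratio, from 23627 strong distal sites among 109257 merged regions that were counted in both libraries. A strong distal site is an autosomal merged region with 100 to 10000 counts summed over the libraries that lies over 1 kb from either end of every protein-coding gene in RefSeq (build GRCm38). The stretched count was divided by the control count and then by 0.944, the median of that ratio over regions with at least 20 summed counts and a control count above 0. The result is called the scaled ratio, and a value of 0.5 or less made a site a lower site. An interval on chromosome 2 was left out. It held 43 strong distal regions, of which 38 had a scaled ratio of 0.5 or less.

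Chromatin was profiled with ATAC-seq. The transposase Tn5 enters open DNA and attaches sequencing adapters to the ends. Basal cells of the interfollicular epidermis, the skin between hair follicles, were sorted for the integrin ITGA6 and for absence of CD34, a surface marker of hair follicle stem cells, with 10000 cells used per library. The stretched library came from 1 CD1 mouse whose skin underwent force-mediated expansion, and its title, Exp-D2, is not explained in the labels. The control library came from 1 untreated CD1 mouse. CD1 is an outbred stock, so the animals are not genetically identical, and copy number was not measured. The labels give no age, no sex and no other treatment for either animal. With 1 library per group there was no replicate and no test. Every value below describes these libraries, and each bracketed range is an exact 95% interval that covers counting error only.

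Distal open sites are the usual places where transcription factors bind away from a gene's start, and many act as enhancers. In an accessible site nucleosomes are displaced, so Tn5 cuts there more often than in the surrounding DNA. Basal cells renew the epidermis and are held to the basement membrane by integrins, and the transcription factors and chromatin regulators bound at distal sites help to keep their identity. Accessibility is not transcription, and RNA was not analysed here.

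The libraries held 8820178 control counts and 11803785 stretched counts in merged regions. The ratio of these totals was 1.34, and 1.04 without the 10 regions over 10000 counts. Fragments used for peak calling were fewer in the stretched library, 23876613 against 31944854. Open regions within 1 kb of the ends of the basal genes Krt5, Krt14 and Itga6 had 543, 468 and 159 control counts and 529, 632 and 235 stretched counts. In all, 13 of 15 basal genes had at least 100 counts at their ends. The corresponding number was 3 of 8 for melanocyte markers, 2 of 11 for immune markers, 2 of 12 for fibroblast and endothelial markers and 8 of 10 for sebaceous gland markers. Summed over a list, melanocyte markers had 857 control and 951 stretched counts, immune markers 263 and 193, fibroblast and endothelial markers 316 and 213, and sebaceous markers 1137 and 1111. The pan-leukocyte gene Ptprc and the fibroblast gene Pdgfra had no region at their ends. However, Pdgfra had 3 strong distal sites with 299 control and 217 stretched counts together. In the same lists, H2-Ab1 had 100 and 37 counts at its ends and Col1a1 109 and 59. Spi1 had 71 and 72 and Cd74 29 and 38. The part of any change in cell mixture in the lower sites was not tested, and fewer open copies among the cells cannot be told apart from a change in which cells were sorted.

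The genome sequence was not used here, so sequence can be shown only where a lower site contains a start annotated in the RefSeq promoter table. Such starts lie inside the site although the ends of all protein-coding genes are over 1 kb away, because they belong to noncoding transcripts or to internal starts of coding genes. Of the 829 sites, 31 (3.74%) held a start, against 6.93% of all strong distal sites and 12.1% of the sites that were at least 2-fold higher. A whole window of 250 bases before the start lay inside a lower site in 26 cases. The 6 windows below are shown because they cover both Pitpnm2 sites with a start, the Nfix cluster, the lowest ratio among the windows, 1 of the longest lower sites and a gene of the cornified layer. Each runs 5′ to 3′ along the direction of its transcript, up to the base before the start, as given by RefSeq for GRCm38. Capitals mark matches on either strand to TGANTCA (AP-1), GGAATG (TEAD), TTGGCA (the nuclear factor I core), AGGTCA (the nuclear receptor core), CCGCCC (SP and KLF factors) or AACCGG (grainyhead-like factors).
Pitpnm2: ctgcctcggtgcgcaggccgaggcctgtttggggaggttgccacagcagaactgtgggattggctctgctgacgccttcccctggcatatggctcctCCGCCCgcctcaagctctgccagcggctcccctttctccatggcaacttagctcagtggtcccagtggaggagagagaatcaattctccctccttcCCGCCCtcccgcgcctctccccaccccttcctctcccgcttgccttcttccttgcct
LOC115490137: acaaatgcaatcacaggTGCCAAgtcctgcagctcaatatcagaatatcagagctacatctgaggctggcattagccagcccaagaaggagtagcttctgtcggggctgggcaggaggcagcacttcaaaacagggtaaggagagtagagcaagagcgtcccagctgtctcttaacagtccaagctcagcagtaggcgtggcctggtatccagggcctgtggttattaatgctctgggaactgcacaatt
G430095P16Rik: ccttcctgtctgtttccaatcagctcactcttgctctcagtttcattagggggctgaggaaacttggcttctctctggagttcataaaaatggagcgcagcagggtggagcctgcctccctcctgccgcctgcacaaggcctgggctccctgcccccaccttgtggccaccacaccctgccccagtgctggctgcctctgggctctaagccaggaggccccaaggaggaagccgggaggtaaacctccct
Gm29933: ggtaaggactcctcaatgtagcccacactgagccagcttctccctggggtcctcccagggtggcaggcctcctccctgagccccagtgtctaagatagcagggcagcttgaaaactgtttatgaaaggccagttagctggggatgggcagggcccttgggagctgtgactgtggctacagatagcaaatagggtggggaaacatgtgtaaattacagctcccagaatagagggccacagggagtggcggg
Gm52705: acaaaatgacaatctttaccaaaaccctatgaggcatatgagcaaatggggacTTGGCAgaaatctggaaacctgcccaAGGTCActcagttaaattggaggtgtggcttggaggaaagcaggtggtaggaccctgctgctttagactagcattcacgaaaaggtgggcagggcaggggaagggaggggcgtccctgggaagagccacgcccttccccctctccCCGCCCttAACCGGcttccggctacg
Klk5: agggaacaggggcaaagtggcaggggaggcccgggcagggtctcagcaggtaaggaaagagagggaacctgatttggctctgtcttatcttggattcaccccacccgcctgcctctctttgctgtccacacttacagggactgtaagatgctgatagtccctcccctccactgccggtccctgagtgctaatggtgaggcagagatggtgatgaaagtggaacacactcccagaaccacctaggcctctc
The Pitpnm2 window lies at chr5:124187183-124187432 on the minus strand, inside a site with 172 control and 53 stretched counts. LOC115490137 starts within the same gene, at chr5:124175151-124175400 on the plus strand, in a site with 93 and 33 counts. G430095P16Rik lies at chr8:84722807-84723056 on the plus strand, in the lower Nfix site farthest from that gene's start (199 and 78 counts). Gm29933 is at chr11:95808605-95808854 on the minus strand, in a site assigned to the phosphatase gene Phospho1 with 80 and 22 counts. The window of Gm52705, chr4:118260490-118260739 on the plus strand, lies in a Ptprf site with 140 and 59 counts. Klk5 encodes a protease that acts in shedding of the cornified layer, and its window at chr7:43842019-43842268 on the plus strand lies in a site with 88 and 41 counts.

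These windows were poorer in CpG than those of other distal sites. The ratio of observed to expected CpG had a median of 0.363 in the 26 windows of lower sites, 0.595 in the 1446 windows of all strong distal sites, 0.775 in the windows of higher sites and 0.373 in all 32851 windows of the table. GC content had medians of 56.2%, 57.6%, 62.4% and 52.4% in the same order. Windows of sites with a scaled ratio between 0.8 and 1.25 lay nearer the lower sites, with medians of 0.506 for CpG and 56.4% for GC. The 26 windows come only from lower sites that contain an annotated start. The nuclear factor I core was found in 7 of the 26 windows (26.9%), against 12.9% of the windows of all strong distal sites and 12.3% of the table. AP-1 matches were found in 0 of 26 windows, against 7.26% and 6.75%, and AGGTCA in 1 (3.85%), against 10.2% and 14%. CCGCCC was present in 8 (30.8%), against 48.5% and 32.7%. Of the remaining letters, GGAATG occurred in 4 (15.4%, against 12.6% and 12.6%) and AACCGG in 3 (11.5%, against 7.81% and 5.62%). The E-box CANNTG, which is not capitalised, occurred in 18 (69.2%, against 61.0% and 66.2%). All these shares of lower sites come from 26 windows, so every difference named here rests on few windows. A match is a description of letters in a window, and nothing follows from it about a factor.

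Lower sites made up 3.51% of strong distal sites, the share fixed by the choice of members, while 1037 (4.39%) were at least 2-fold higher. Among all 94857 regions with at least 20 summed counts, weak and gene-end regions included, 9634 (10.2%) had a scaled ratio of 0.5 or less. The lower sites held 88592 control and 35267 stretched counts together. Their control count ranged from 68 to 484 with a median of 95, and their stretched count from 2 to 159 with a median of 38. Over all strong distal sites the medians were 86 and 83. The scaled ratio of the lower sites had a median of 0.443 and quartiles of 0.392 and 0.471, so most lay near the limit. It exceeded 0.4 in 605 sites and was 0.25 or less in 25. An interval below 1 is fixed by the count minimum and the ratio limit, and in 87 sites its upper bound was 0.5 or less.

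**Figure D1:**
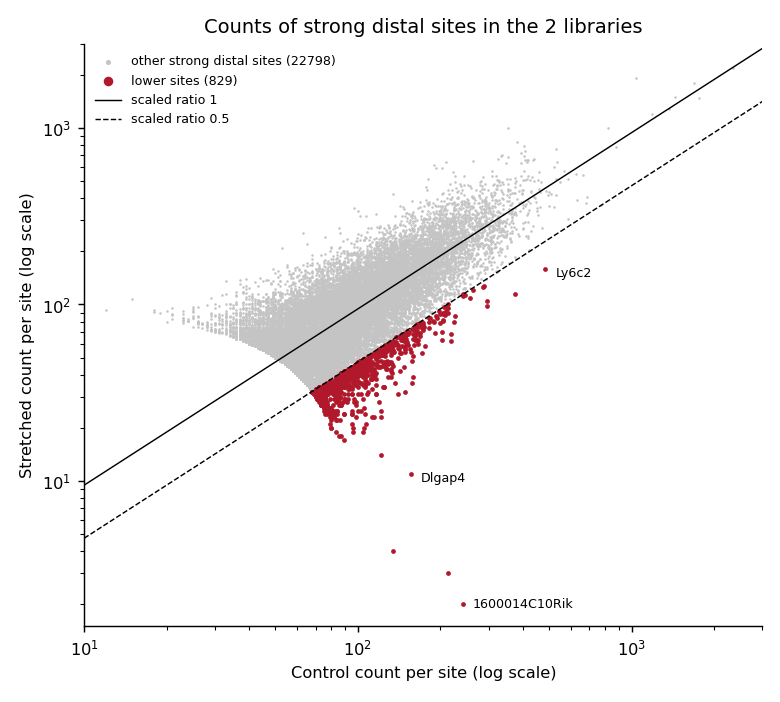
Stretched against control count of each strong distal site, both on log scales, with the 829 lower sites in red and the other 22798 in grey. The solid and dashed lines mark scaled ratios of 1 and 0.5, the 3 sites of 1600014C10Rik lie at 2 to 4 stretched counts, and the Ly6c2 site has the highest control count of the lower sites.

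The lower sites were mostly of moderate strength. Of the 829, 536 (64.7%) had fewer than 150 summed counts, against 40.7% of all strong distal sites, and 19 had at least 300. The share of lower sites was 5.58% from 100 to under 150 summed counts, 3.50% from 150 to under 200, 1.86% from 200 to under 300, 0.608% from 300 to under 500 and 0.121% from 500 upwards. The median log2 scaled ratio of strong distal sites rose with count, from -0.03 at 100 to under 150 to 0.30 from 500 upwards. A site with few counts also has a wider interval. The parts of counting noise and of this rise in the gradient were not tested. The share that was at least 2-fold higher was 5.05% in the weakest class and 6.42% in the strongest, so it did not follow the same course. Lower sites were 927 bp long in the median, against 1001 bp over all strong distal sites.

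The ratio at the limit shows how fine the division is. Just inside it, sites at Lpp, an adaptor protein of cell contacts, at the septin gene Septin9 and at Bbs2, a gene of the ciliary BBSome, each had 72 control and 34 stretched counts and a scaled ratio of 0.5. Just outside it were sites at Niban2 with 91 and 43 counts, at the DNA methyltransferase gene Dnmt3a with 237 and 112, and at C1qtnf1 with 129 and 61. The interval of the Lpp site ran from 0.322 to 0.762 and that of the Dnmt3a site from 0.396 to 0.629, so the sites on either side of the limit could not be told apart.

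The authors' own peak lists, called on each library alone, still listed most lower sites in the stretched library. A control peak overlapped 824 of the 829 sites and a stretched peak 790, while 787 had both. A control peak alone was present at 37 sites (4.46%), against 0.673% of all strong distal sites, and a stretched peak alone at 3. The authors' fold enrichment at the summit had medians of 6.24 (control) and 5.75 (stretched) at lower sites. Over all strong distal sites these medians were 6.59 and 8.15. The highest summit of a lower site reached 44 fragments in the control and 25 after stretching in the median, and 43 and 48 over all strong distal sites. After scaling, the height ratio had a median of 0.518 at the 787 lower sites with both values, and it was below 1 in 779 and at most 0.5 in 350. Heights and counts come from the same fragments, so the heights are not independent of the choice, but they show that most lower sites were reduced and not absent.

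The sites lay more often inside genes than strong distal sites in general. The centre of 516 lower sites (62.2%) was inside a protein-coding gene, against 54.3% of all strong distal sites and 43.5% of the higher sites. Another 208 (25.1%) lay outside genes within 50 kb of a gene end and 105 (12.7%) farther away. The median distance to the nearest gene end was 19513 bp, against 21724 bp. Among sites in genes of known direction, the lower ones lay 53.3% of the way from start to end in the median (416 sites), against 46.4% over all strong distal sites. No exon, intron or UTR annotation was used, so sites inside genes are not divided further.

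Lower sites were more frequent in gene-rich neighbourhoods. A median of 15 protein-coding genes had their centre within 500 kb of a lower site, against 9 for all strong distal sites and 6 for higher sites. Of the lower sites, 269 (32.4%) had more than 20 such genes, against 17.4% and 7.52%. The share of strong distal sites that were lower was 2.58% with no gene nearby (6 of 233 sites), 1.66% with 1 or 2 and 1.92% with 3 to 5. It was 2.40% with 6 to 10, 4.42% with 11 to 20, and 6.70%, 5.94% and 6.86% in the 3 densest classes. The share at least 2-fold higher went the other way, from 11.2% with no gene nearby to 2.04% in the densest class. The gradient was also present among sites of like count. From 100 to under 150 summed counts the lower share was 3.33% with under 6 genes nearby, 5.14% with 6 to 20 and 10.7% with more than 20. From 200 to under 300 counts it was 0.358%, 2.08% and 3.49%. The median log2 scaled ratio of all strong distal sites moved in the same direction, from 0.30 with no gene nearby to -0.16 in the densest class, so the gradient was not limited to the sites past the limit. Base composition of the sites, which can vary with gene density, could not be computed without the genome sequence, and its part was not tested.

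**Figure D2:**
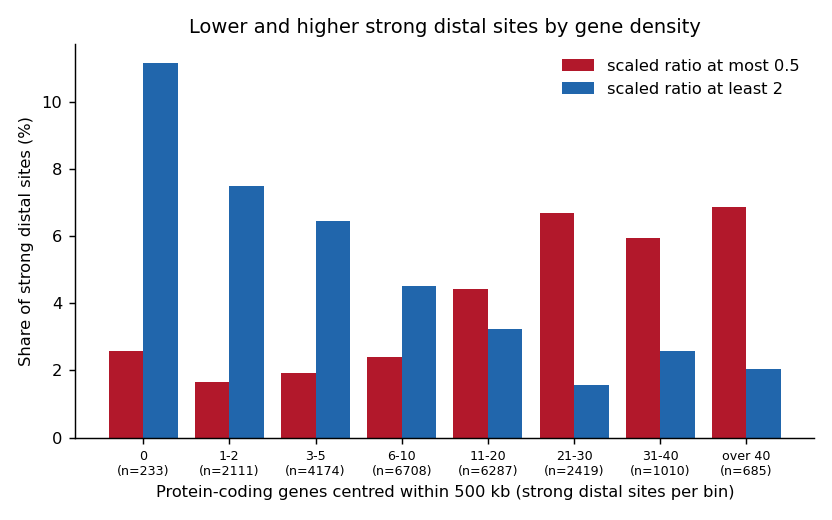
Percent of strong distal sites that were lower (red) or at least 2-fold higher (blue), by how many protein-coding genes had their centre within 500 kb, with the number of sites per class under each pair of bars. Lower sites were 2.58% of sites with no gene nearby and 6.86% of those with over 40, while higher sites went from 11.2% to 2.04%.

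The share also differed between chromosomes. Chromosome 11 had 129 lower sites among 1649 strong distal sites (7.82%), followed by chromosome 8 with 63 of 1252 (5.03%) and chromosome 4 with 77 of 1606 (4.79%). Chromosome 3 had the lowest share, 12 of 1216 (0.987%). Strong distal sites of chromosome 11 had a median of 16 genes within 500 kb and a median log2 scaled ratio of -0.17. Those of chromosome 3 had 8 genes and a median of 0.26. Gene density did not order all chromosomes: chromosome 12, also with a median of 8 genes, had 4.03% lower sites, chromosome 19 with 11 genes 2.40% and chromosome 13 with 6 genes 2.50%.

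Lower sites often lay near each other. Another lower site was present within 50 kb of 223 of them (26.9%), whereas 8.88% of all strong distal sites and 1.35% of higher sites had a lower site that near. When strong distal sites were read in order along each chromosome, 67 pairs, 7 triplets and single runs of 4, 5, 6 and 12 sites consisted of lower sites alone. Regions near them were also low more often. The 1390 regions within 10 kb of a lower site that had at least 20 counts and were not lower sites themselves, strong or weak, had a median scaled ratio of 0.699, and 21.1% of them were at 0.5 or less. Around all strong distal sites, with neighbouring strong sites included, the median was 1.01 and the share 8.52%, and around higher sites the median was 1.38.

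In all, 724 of the 829 sites were assigned to a gene, either the gene holding the site or the nearest within 50 kb, and 105 were not. They fell on 579 genes, of which 83 had at least 2 lower sites and 28 at least 3. The regions within 1 kb of either end of these genes were less reduced in the median than the distal sites. Starts and far ends are pooled, so the value is not one of promoters. These regions needed 20 summed counts, against 100 for the distal sites. Of 76 genes with such regions, 55 had an end ratio below 1, 21 were at 1 or above and 5 were at 0.5 or less, with a median of 0.812, while the median distal ratio over the 83 genes was 0.630. The distal ratios include the sites that chose these genes, so the gap is a description. Of the 83 genes, 2 also had a site that was at least 2-fold higher. Among all strong distal sites 4.39% were that high, which is a share of sites and not of genes. The genes were chosen by their lower sites, and the share over all genes was not computed.

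Nfix, which encodes a nuclear factor I protein that binds DNA as a dimer and is expressed in skin epithelium, had the most lower sites. The gene lies on the minus strand at chr8:84704712-84801238, and 12 of its 16 strong distal sites were lower. Read in the order of the coordinates, these sites had 199, 204, 297, 107, 76, 95, 148, 105, 92, 158, 116 and 295 control counts. The stretched counts were 78, 88, 98, 21, 27, 25, 65, 20, 29, 36, 31 and 104 in the same order. The sites with the most control counts were also those with the most stretched counts, at either 297 and 98 or 295 and 104. The 12 sites were consecutive and spanned 53.0 kb, chr8:84722744-84775748, with a summed scaled ratio of 0.348 (0.317 to 0.381). The deepest was chr8:84757525-84758202, with 105 and 20 counts.

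Strong Nfix sites on either side of the consecutive lower sites were less reduced. Toward the far end of the gene, the strong site 91.7 kb from the start had 81 and 54 counts. Its scaled ratio was 0.706 (0.491 to 1.01). The strong sites 15.0, 10.5 and 7.65 kb from the start had 322 and 153, 306 and 175, and 248 and 161 counts, with scaled ratios of 0.503, 0.606 and 0.687. Of the 2 regions within 1 kb of the start, that inside the gene had 140 and 113 counts, a ratio of 0.855 (0.661 to 1.10). The region just before the start had 70 and 38, a ratio of 0.575 (0.377 to 0.865). The 4 regions at the Nfix ends summed to 0.691 (0.571 to 0.834). All 22 regions inside the gene were below 1 and 15 were at 0.5 or less. Within 60 kb outside the gene, 16 of 22 regions were below 1 and 8 were at 0.5 or less. A region at an end of Trmt1, just beyond Nfix, had 265 and 93 counts, a ratio of 0.372 (0.290 to 0.472). Another region at an end of Trmt1 had 68 and 66 counts, a ratio of 1.03 (0.721 to 1.46). Farther off, regions at the ends of Calr and Farsa had ratios of 0.939 and 1.04, and those of Ier2 on the other side 1.13 and 0.988, while 2 lower sites beside Ier2 were at 0.492 and 0.487. Weaker sites 4.09 to 22.4 kb before the Nfix start remained low, 4 of these 5 between 0.206 and 0.364, so low values were also found in the DNA before the start.

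Rxra encodes the retinoid X receptor alpha, the dimer partner of the retinoic acid, vitamin D, thyroid hormone and PPAR receptors, and had 9 lower sites among 19. It lies on the plus strand at chr2:27676445-27763319. Its 6 lower sites inside the gene had 121, 77, 204, 116, 137 and 176 control counts and 14, 31, 81, 41, 60 and 58 stretched counts. The 3 before the start had 111, 140 and 114 control counts and 47, 31 and 46 stretched counts. The site with 14 stretched counts, chr2:27693240-27694156, was the deepest, at a scaled ratio of 0.123 (0.0650 to 0.214). All 22 regions inside Rxra were below 1, and so were the 13 others within 60 kb outside. The 19 strong distal sites summed to a ratio of 0.542 (0.515 to 0.571), and the regions at the gene's ends had 525 and 322 counts, a ratio of 0.649. The count of lower Rxra sites depended on the scaling, since 18 were lower when libraries were scaled by total counts and 17 after removal of a count trend.

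Bcl11b, a zinc-finger repressor known from T cells and from epidermal development, had 5 lower sites among 14. Their control counts were 86, 105, 182, 171 and 73 and their stretched counts 30, 48, 84, 75 and 27. All 26 regions inside the gene were below 1, but the other 9 strong sites stayed above 0.5, and the ends had a ratio of 0.710. A run of 5 consecutive lower sites spanned 114 kb, from beyond the gene's end to inside it, with a summed ratio of 0.415 (0.357 to 0.482). Foxn3, a forkhead repressor, had 7 lower sites among 28. Inside the 374 kb gene there were 6 lower sites among 27. Their control counts ranged from 75 to 108 and their stretched counts from 30 to 46. Foxn3 was mixed, with 39 of 50 regions inside the gene below 1 and a summed distal ratio of 0.759. Zbtb16, which encodes the transcription factor PLZF, had 4 lower sites among 11, with 87, 110, 103 and 159 control counts and 32, 44, 40 and 51 stretched counts.

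**Figure D3:**
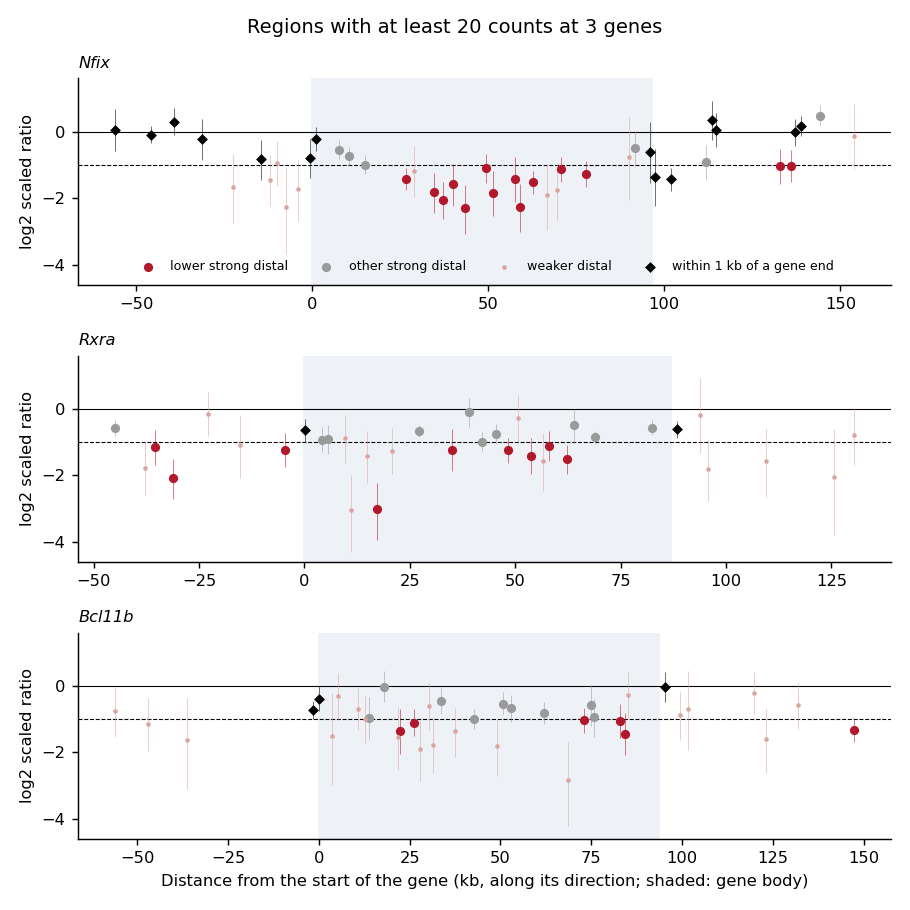
The log2 scaled ratio of every merged region with at least 20 summed counts within 60 kb of Nfix, Rxra and Bcl11b, against distance from the start of the gene in kb, with the gene body shaded. Vertical lines are 95% counting intervals, the dashed line is the limit of 0.5, and the 12 lower sites of Nfix form an unbroken series from 26.5 to 77.9 kb.

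Among genes of signalling, adhesion and the cytoskeleton, Grm4 stood out because all 5 of its strong distal sites were lower. Grm4 encodes a metabotropic glutamate receptor. The sites had 86, 119, 106, 86 and 71 control counts and 27, 28, 39, 30 and 29 stretched counts, and all 9 regions inside the gene were at 0.5 or less. The regions at the ends had 114 and 39 counts, a ratio of 0.362 (0.245 to 0.525), so here the gene ends were as low as the distal sites. Together with a site at Lemd2 they formed a run of 6 lower sites over 264 kb with a summed ratio of 0.346. A region at an end of Hmga1, beyond the Grm4 ends, had 171 and 167 counts, a ratio of 1.03.

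Pitpnm2, a membrane-associated phosphatidylinositol transfer protein, had 5 lower sites among 11, and its printed start site was the deepest of them at 0.326. The other 4 had 104, 93, 83 and 170 control counts and 46, 33, 32 and 79 stretched counts. Vav2, a guanine nucleotide exchange factor, had 4 lower sites among 8, with 206, 123, 104 and 149 control counts and 89, 52, 43 and 56 stretched counts. The 2 regions near the start of Vav2 differed, with 112 and 145 counts (1.37, 1.06 to 1.77) inside the gene and 46 and 20 (0.460, 0.258 to 0.794) just before it, and their sum had a ratio of 1.11. Septin9, which encodes a filament-forming GTPase, had 4 of 18 sites lower and an end ratio of 1.15 (0.898 to 1.47). Agap1, a GTPase-activating protein for Arf proteins, had 4 of 8 sites lower and an end ratio of 0.743.

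Nectin1 encodes a cell adhesion molecule of adherens junctions. Its 4 lower sites among 17 had 159, 151, 147 and 120 control counts and 39, 61, 62 and 56 stretched counts, and 2 of them lay outside the gene. Its ends had only 39 and 37 counts, a ratio of 1.0 with an interval from 0.623 to 1.62. Sh3pxd2a encodes the podosome scaffold TKS5, and 4 of its 15 sites were lower, with scaled ratios between 0.397 and 0.495. The genes described here with 4 lower sites were taken from 9 that tied at that number, by their lower summed ratio. The tied genes left out were Casz1, Sfi1 and Aopep, at 0.725, 0.856 and 0.951. None of the 15 genes with at least 4 lower sites had a strong distal site that was at least 2-fold higher. These genes had from 5 (Grm4) to 30 (Sfi1) strong distal sites each. Over all strong distal sites 4.39% were at least 2-fold higher, which is a share of sites and not of genes. The 15 genes were chosen by their lower sites.

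**Figure D4:**
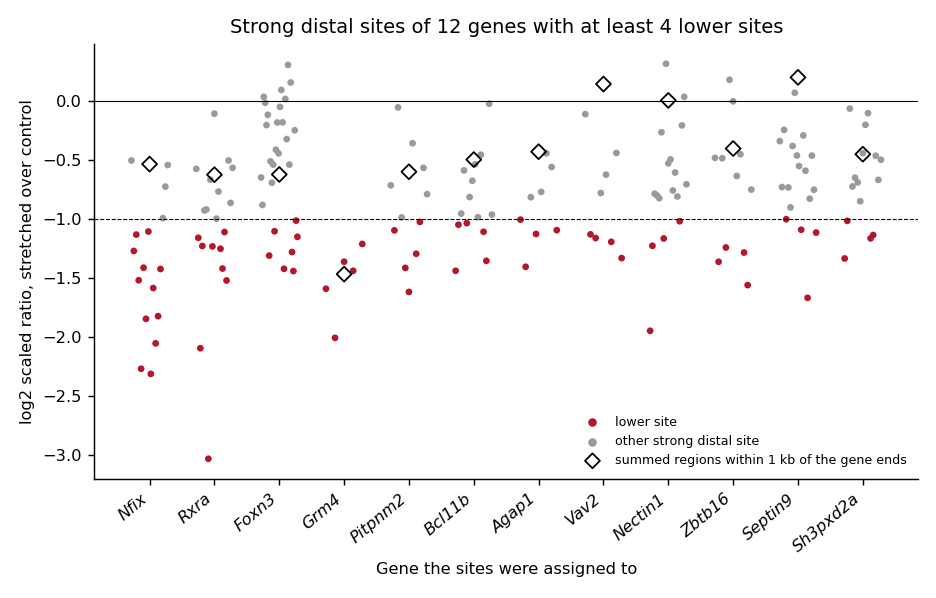
The log2 scaled ratio of each strong distal site of 12 genes with the most lower sites (of 9 tied at 4 lower sites, the 6 with the lowest summed ratio), in order of position within each column, with lower sites in red, other strong distal sites in grey and the summed regions at the gene's ends as open diamonds. The solid line is a ratio of 1 and the dashed line the limit of 0.5, and the summed ends of Vav2 and Septin9 lie above 1 while those of Grm4 lie at 0.362.

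The 3 lowest sites were neighbours inside 1600014C10Rik, a gene named only by its clone, on chromosome 7. Site chr7:38187788-38188116 had 241 control and 2 stretched counts, a scaled ratio of 0.00879 (0.00106 to 0.0321). The sites on either side had 214 and 3 counts and 134 and 4 counts. These reductions were of another size than at the other lower sites, since the next lowest ratio was 0.0747. The region at the start of the same gene, less than 1 kb away from the nearest of them, had 550 and 366 counts, a ratio of 0.705 (0.616 to 0.806). Weaker regions at 46 and 8, 28 and 2, and 35 and 3 counts lay 7.0 and 5.74 kb before the start and 16.8 kb after it. A strong site 17.8 kb after the start, beyond the last of these, had 105 and 75 counts, so the near-empty stretch was interrupted at the start region and ended within 20 kb.

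The next lowest site lay in Dlgap4, a scaffold protein gene, at chr2:156664652-156665684 with 156 control and 11 stretched counts (0.0747). The deepest Rxra site followed. A site 1.90 kb from an end of Krt27, a keratin of the inner root sheath of the hair follicle, had 104 and 19 counts, a ratio of 0.193 (0.112 to 0.317). It belonged to a triplet over 116 kb with a Krt24 site and a site near Krt10, the keratin of the first suprabasal layer, that had 89 and 42 counts. Sites assigned to no gene at chr12:107496788-107497532, with 121 and 23 counts, and chr9:43408195-43409104, with 89 and 17, were also among the 10 lowest. The remaining 2 of the 10 were Nfix sites.

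The strongest lower site by control count, chr15:75085509-75087037, lay 21124 bp from the end of Ly6c2, a gene of a surface protein best known from monocytes. It had 484 control and 159 stretched counts, a ratio of 0.348 (0.289 to 0.417), and summit heights of 278 control and 114 stretched fragments. Thra, the thyroid hormone receptor alpha, had a site with 256 and 109 counts and a second with 90 and 36. The longest lower site, 2782 bp, was in Casz1, a zinc-finger transcription factor gene, with 289 and 128 counts, and Casz1 had 4 lower sites among 22 while its end regions went opposite ways, with 108 and 147 counts at the start (1.44, 1.12 to 1.87) and 151 and 104 at the far end (0.729, 0.563 to 0.942). Sites in Fibcd1 (287 and 125), Gdpd5 (263 and 121), Thsd4 (247 and 113) and Agap1 (242 and 114), and 2 sites of Nfix, were also among the 10 with the highest control count. The ratios of the Fibcd1, Gdpd5, Thsd4 and Agap1 sites lay between 0.461 and 0.499, nearer the limit than that of Ly6c2. The other 2 of the 3 longest sites were in Ptprf, a receptor tyrosine phosphatase, and near Ubr4, a ubiquitin ligase, at 2759 and 2461 bp.

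Pathway lists showed where lower sites accumulated and where they were few. Over all strong distal sites, 3.51% were lower and 4.39% at least 2-fold higher. The retinoid list had 11 lower sites among 55 (20%) and 1 higher site. Of the 11, 9 belonged to Rxra, 1 to the retinol transporter gene Stra6, with 87 control and 18 stretched counts, and 1 to Cyp26b1, a retinoic acid hydroxylase, with 104 and 46. The receptor genes Rara and Rarg had no lower site but summed ratios of 0.668 and 0.711, whereas Rarb was at 1.06 and Aldh1a1, an enzyme of retinoic acid synthesis, at 1.40. The list was therefore mixed. Nuclear factor I genes had 13 lower sites among 44 (29.5%) and 1 higher site, with 12 at Nfix and 1 at Nfic. Nfia and Nfib had none, and their summed ratios were 1.12 (1.05 to 1.20) and 1.31 (1.19 to 1.45), so the family was split.

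In the Notch list 2 of 41 sites were lower and 0 higher. They were the sole strong distal site of the ligand Jag2, with 85 and 18 counts, and a site of the receptor Notch1, with 100 and 46. The Wnt and R-spondin list had 5 of 105 sites lower and 2 higher. Lgr6, an R-spondin receptor of skin stem cells, had 2 of them among its 4 sites, with 148 and 58 and with 145 and 63 counts, while its relative Lgr4 had 0 lower and 2 higher sites. The others belonged to Fzd2, Wnt3a and Tcf7l2. The BMP and TGF-beta list had 1 lower site in 95, at Smad3, and 5 higher sites. The YAP, TAZ and TEAD list had 1 in 90, at Ptpn14, and 5 higher, and the AP-1 list 0 in 30 and 1 higher. These last 3 lists were below the overall share of lower sites. Their shares of higher sites were 5.26%, 5.56% and 3.33%, near the 4.39% over all strong distal sites.

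Epidermal transcription factor genes had 12 lower sites among 191 (6.28%) and 9 higher, led by Bcl11b with 5 and Casz1 with 4, then Grhl3, Ovol1 and Runx1 with 1 each. The basal identity list had 1 of 75 lower, at the plectin gene Plec, and 2 higher. The suprabasal list had 3 of 51 lower, at Krt10, Klk5 and Tgm3, and 6 higher. The hair follicle list had 2 of 56 lower, at Krt27 and at Krt15, where the site had 90 and 40 counts, and 2 higher. The EGF and ERBB list had 1 of 35 lower, at Tgfa, and 3 higher. Genes of SRC, TAM receptors and focal adhesion had 5 of 83 lower and 0 higher, with 1 each at Gas6, Src, Tns1, Tns3 and Myh9. At Gas6, the ligand of TAM receptors, the site had 96 and 19 counts, and the gene's 3 sites summed to 0.397 (0.309 to 0.505), while Src was at 0.902.

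Marker lists of other cell types held few strong distal sites. The melanocyte list had 1 lower site among 9, at Sox10, with 123 and 34 counts. The immune list had 0 of 2, the fibroblast and endothelial list 0 of 9 and the sebaceous list 0 of 4, and none of these 4 lists had a higher site. Noncoding genes were touched about as often as elsewhere: the end of a long noncoding RNA gene lay in 29 lower sites (3.50%, against 4.22% of all strong distal sites). A microRNA gene lay within 1 kb of 5 sites (0.603%, against 0.334%), namely Mir1191b, Mir5110, Mir6999, Mir3093 and Mir190a. The Mir5110 site in Bcas3 had 125 control and 34 stretched counts, the lowest ratio of the 5 at 0.288.

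The DNA around the lower sites was also covered less in the stretched library. MACS2 compares each summit with a local background, the mean fragment coverage over the surrounding 10 kb or a floor set by the whole library, and this background can be recovered from the authors' height and fold enrichment. It is given here as multiples of the floor, which was 3.42 fragments for the control and 2.64 for the stretched library. At the lower sites the control median was 1.73 and the stretched median 1.18, and over all strong distal sites 1.63 and 1.91. The ratio of stretched to control had a median of 0.743 at the 787 lower sites with both values, and it was lower by over 1% in 722 and higher in 27. Over all strong distal sites this ratio was 1.17. The surroundings include the site itself and its neighbours, and summits at the floor cannot go lower, so the figure describes the locality and is not independent of the site.

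Surroundings were dense at the clusters. At Nfix the control value was 4.03 to 6.88 (10 of 12 sites with a summit) and the stretched value 2.09 to 3.11 (8 of 12). At Rxra the medians were 5.81 and 3.22, and at Bcl11b 5.41 and 3.66, the latter from 2 sites. Values above 3 were found in the control at 126 lower sites (15.3%), against 10.2% of all strong distal sites. The 1600014C10Rik sites had control values of 7.59 to 11.3 and no stretched summit.

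**Figure D5:**
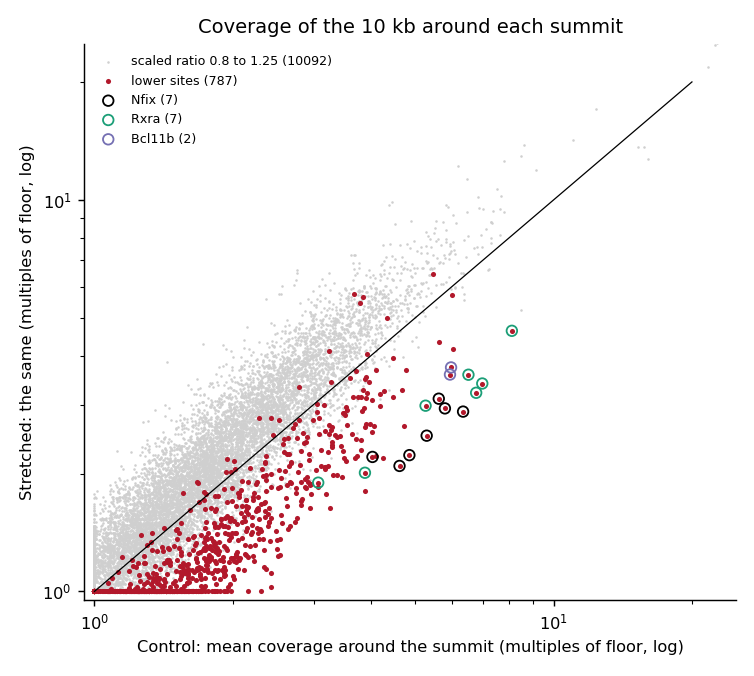
Mean coverage of the 10 kb around each summit as multiples of the library's floor, stretched against control, both on log scales, for 787 lower sites (red), sites with a scaled ratio of 0.8 to 1.25 (grey), and the sites of Nfix, Rxra and Bcl11b with both values (rings). The line marks equal values, and 722 of the lower sites lie over 1% below it.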

How the data were processed

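Members and gene lists were chosen with earlier results of these data known. Libraries were grouped by their treatment label. Tools listed in the submitters' processing notes are HTSeq, MACS2 2.1.0.20151222, Picard, SAMtools and Bowtie2 2.2.6, with the build GRCm38. The deposited count tables hold whole, unscaled counts per merged region, with the same regions in both. The counting program, its handling of duplicates and of Tn5 shifts, and the merging were not given in the sources used here. Starts are printed 1-based, having been taken as 0-based. Per the file headers, the authors called peaks with MACS2 on each library alone, from paired-end fragments (31944854 control, 23876613 stretched), with a q cutoff of 0.05 and no control file. The deposited pileup at a summit is a signal in whole fragments. The authors' fold enrichment is a ratio to local background of the same library, and their deposited -log10 q was used for a stricter peak threshold.

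Scaled ratios have exact Clopper-Pearson 95% intervals of the share of the summed count in the stretched library. They cover counting error only, since reads without molecular identifiers are not independent molecules. The rule was also run on simulated counts with known ratios. These held counting error only, so the run says nothing about variation between animals or libraries. A site was assigned to the protein-coding gene holding its centre, otherwise to the nearest end within 50 kb, with 21900 genes from RefSeq. Pileup ratios were divided by 1.10, their median. The 17 gene lists were counted without a test. Named genes are the 12 with the most members (ties by lower summed ratio), the 10 members with the lowest ratio and the 10 with the highest control count, up to 3 genes per list, 3 sites on each side of the limit, the 5 longest runs and the 3 longest members. A site that this rule names is not reported here. Genes of printed windows, flanking and tied genes, single list genes without or beyond these, host genes of microRNAs and the second site of Thra were named after their values were seen. Alternatives used edgeR 4.0.16 and DESeq2 1.42.0 (R 4.3.3) for scaling alone. The remaining work used scipy 1.17.1, matplotlib 3.10.9, pandas 2.3.3 and numpy 2.4.6 in Python 3.11.15.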

Additional observations from a re-analysis of the deposited data

How the results depend on the processing

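The number of lower sites depends on the scaling and on every limit. It was 829 as reported, 834 with TMM factors and 806 with DESeq2 size factors. Scaling by total counts gave 3880 lower and 145 higher sites, and leaving regions over 10000 counts out of the totals gave 1348 and 579, against 829 and 1037. These scalings put the median log2 ratio of strong distal sites at -0.45 and -0.09, against 0.05 for TMM. Removal of a count trend gave 1065 lower and 763 higher sites, and 795 of the 829 sites were among them. At least 50 summed counts gave 3204, at least 200 gave 115 (beside 373 higher), a control count of at least 100 gave 369 (beside 147 higher), a ratio limit of 0.4 gave 224 and an upper interval bound of 0.5 gave 87. Beyond 5 kb and 10 kb from gene ends there were 682 and 571. Genes with at least 2 lower sites numbered 83, 59 by the nearest end and 61 by the holding gene alone. Lower sites in the retinoid list went from 11 to 29 with total counts and 21 without the trend, and those in the SRC list from 5 to 23 with total counts and to 9 without large regions. The lower share at over 20 genes against under 6 genes was 6.54% against 1.86% as reported and 27.0% against 9.88% with total counts. No paired analysis was possible because each group has 1 library and no replicate number. No library could be left out. Depth limits most single sites, since 460 lower sites had a control count below 100.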
